A study of Homo sapiens with 2 samples.

Results

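The KLHL and KBTBD genes encode adaptors of ubiquitin ligases. These proteins carry a BTB domain, which binds the cullin CUL3, and a set of kelch repeats, which holds the substrate. Each adaptor thus brings its own target to the ligase. Known targets of single adaptors include kinases of mitosis, kinases that control salt transport, coat proteins of secretory vesicles, autophagy factors and keratins, and several adaptors are used mainly in muscle, brain, testis or B cells. Every gene whose symbol on the array platform was KLHL or KBTBD followed by digits was taken as a member. This gave 42 genes of the 19775 named there, 34 of them KLHL and 8 KBTBD, with 98 of the 54675 probe sets. Another 4 probe sets that carry a member's symbol together with that of a different gene were left out.

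The series holds 2 Affymetrix arrays of AGS, an epithelial line from a human gastric adenocarcinoma. In 1 culture galectin-3 (LGALS3), a lectin that binds beta-galactosides, was silenced with a small interfering RNA, and the other is labelled control. Neither the time after silencing nor the treatment of the control is given in the labels. Signals are MAS5 intensities on a linear scale, and ratios are log2 of silenced over control. With 1 array in each group there is no replicate check and no test, so no p-value is given and every difference describes these arrays only. Genes are counted by size, at least 2-fold either way. A signal was read as measured above a floor of 109.5 on the silenced array and 138.4 on the control array, set from olfactory receptor genes, which a stomach line is not known for using. A probe set above its floor on 1 array only gives a bound ("at least"), and 1 under it on both gives no ratio.

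LGALS3 had a signal of 2699.8 on the silenced array, against 20206.3 on the control array, which is 13.4% of the control. All 8 epithelial markers looked at, among them EPCAM and KRT18, were above the floor on both arrays, with ratios above 0 and a median log2 ratio of 0.47. The 4 leukocyte, 5 skeletal muscle and 4 neuron markers on the array were under the floor on both, as were 4 of the 5 fibroblast markers. The exception was COL1A1, a collagen gene, with signals of 1502 on the silenced array and 816.3 on the control array, and log2 ratios from -0.55 to 0.53 on its other probe sets. The part of these markers in the results below was not tested. RNA came from whole cultures, so fewer cells with a transcript and less transcript per cell cannot be told apart.

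Among the adaptor genes that could be measured, KLHL24 and KLHL36 were the only ones with a probe set past 2-fold. No ratio was given by 16 of the 42 genes, nor by 9261 of all 19775 genes on their brightest suitable probe set. Of the 98 probe sets 53 were above the floor on at least 1 array, 48 of them on both. Among the 53, 2 stood 2-fold or more above the control (3.77%, where 3.12% of all 23611 measured probe sets did) and 1 stood 2-fold or more below it (1.89%, where 3.09% of all did). At 1.5-fold, 3 were higher (5.66%, against 10.2% of all) and 7 lower (13.2%, against 11.1% of all). The shares past 2-fold were thus near those of the whole array. The median log2 ratio of the 53 was 0.03, and that of all measured probe sets -0.03. Of the 48 above both floors, 26 had a ratio above 0 and 22 a ratio under 0, and 26 (54.2%) lay within 1.2-fold, as did 45.9% of all probe sets above both floors.

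**Figure D1:**
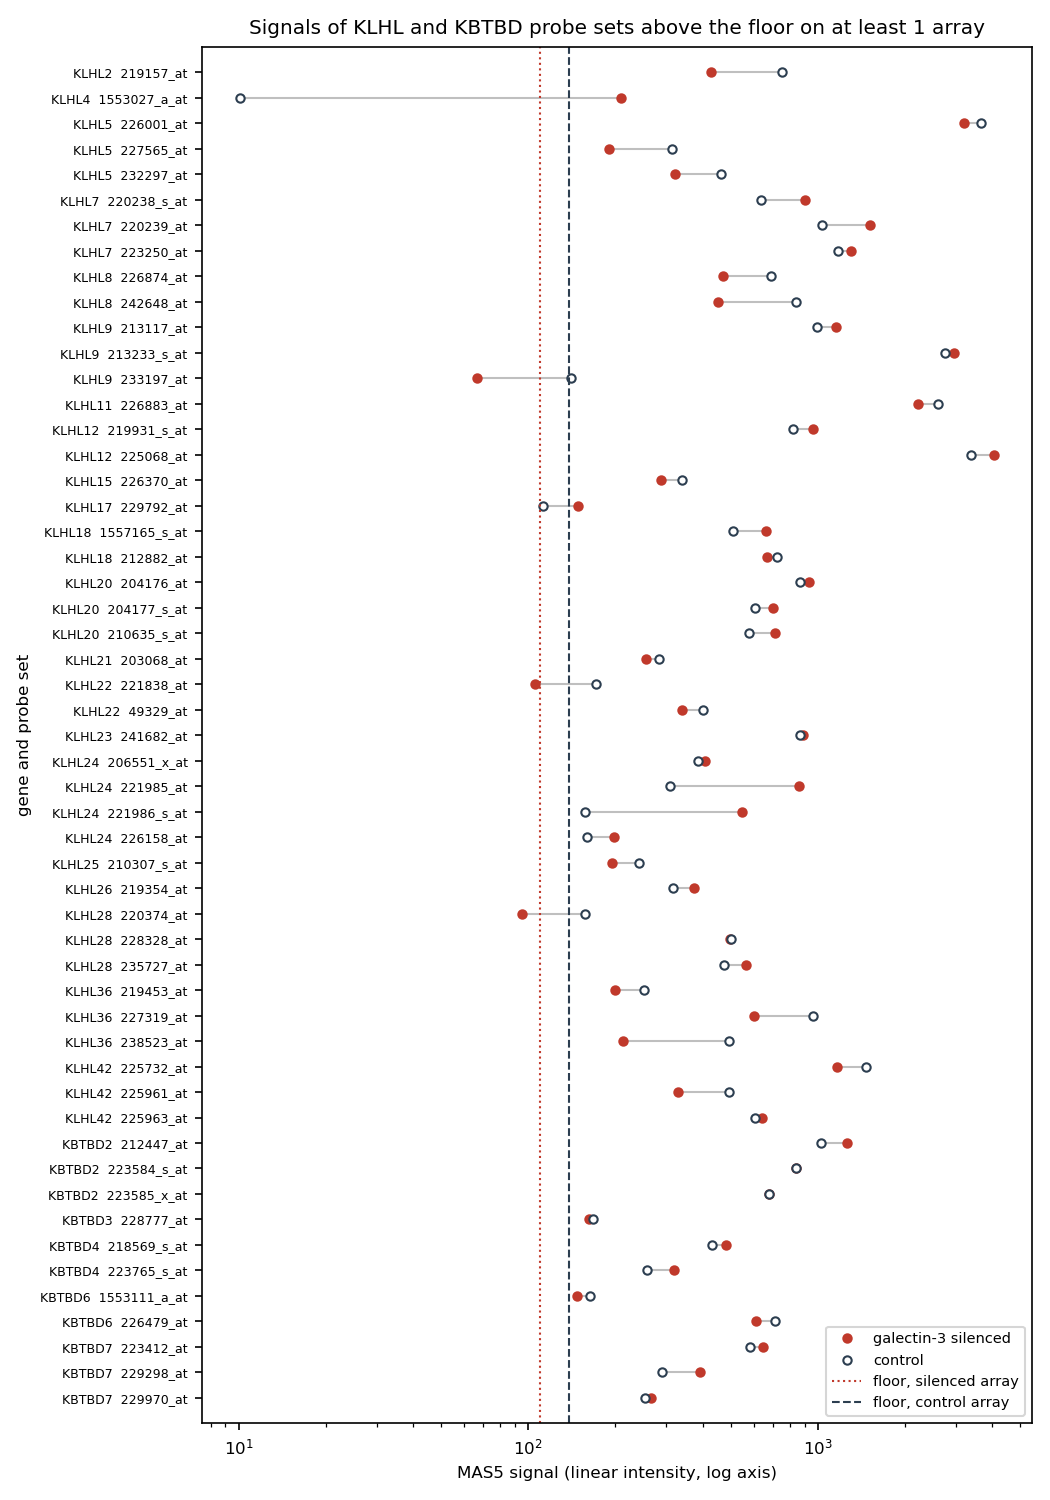
Signals of the 53 KLHL and KBTBD probe sets above the floor on at least 1 array, with galectin-3 silenced cells as filled and control cells as open circles on a log axis, 1 array each. The dotted and dashed lines are the floors of 109.5 (silenced) and 138.4 (control), and among these probe sets 2 of KLHL24 and 1 of KLHL36 stand 2-fold or more apart with both circles above the floors.

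Counted by gene, with the brightest suitable probe set standing for each, 26 of the 42 members were measured and 24 of these were above both floors. KLHL24 alone stood 2-fold or more above the control (1 of 26, where 3.31% of all 10514 measured genes did), and 0 stood as far below it (3.07% of all did). At 1.5-fold, 2 genes were higher, KLHL24 and KLHL4 (10.6% of all genes were), and 3 were lower, KLHL2, KLHL8 and KLHL36 (10.4% of all were). KLHL4 counted here only through a bound of at least 1.51-fold, whose size the control floor sets. The median log2 ratio was -0.0074 over the 26 genes and -0.02 over all measured genes. Where a gene had several probe sets above both floors, these gave a sense of the technical spread, although they read the same RNA and are no replicates. In 15 such members the pooled SD between probe sets of a gene was 0.38 on the log2 scale, or 0.24 without KLHL24, and in 4728 such genes of the whole array it was 0.32. All probe sets pointed 1 way in 11 of the 15 members, upward in 7 and downward in 4. The same count over the 4728 genes was not made, so this cannot be read as a trait of the family.

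**Figure D2:**
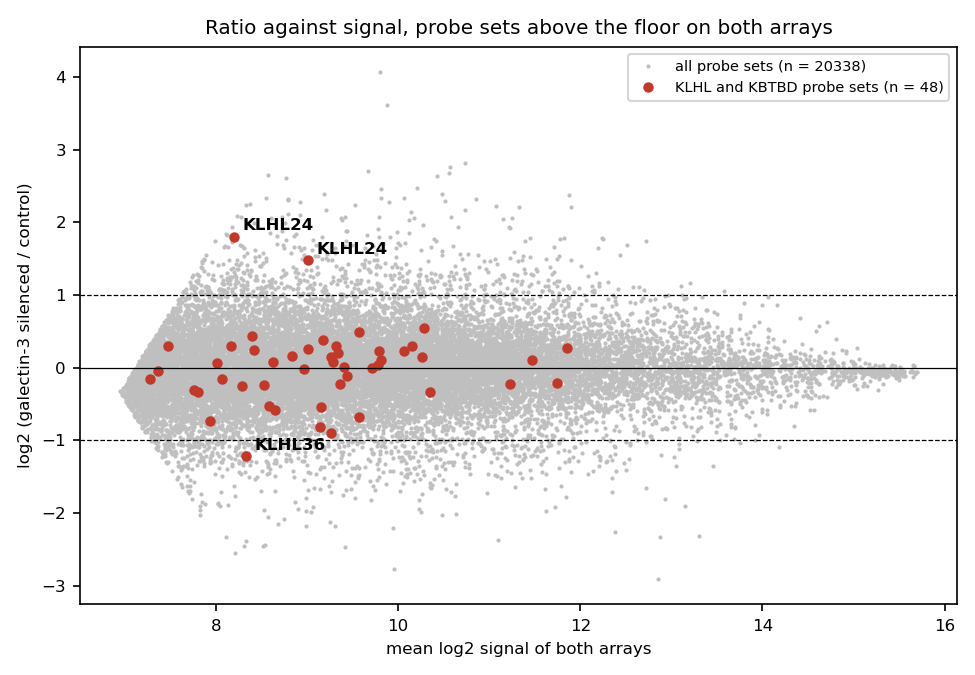
Log2 ratio of silenced over control against the mean log2 signal of both arrays, for the 20338 probe sets above both floors (grey) and the 48 of KLHL and KBTBD genes (red), with dashed lines at 2-fold. The members lie inside the grey cloud, with 2 probe sets of KLHL24 above and 1 of KLHL36 below the lines.

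KLHL24 is best known from skin, where start-codon mutations that stabilise it lead to loss of keratin 14 and to a blistering disease. Probe set 221985_at, the brightest, read 859.5 on the silenced array, against 308.4 on the control array, a 2.79-fold higher signal with a log2 ratio of 1.48. Probe set 221986_s_at read 549 in silenced cells, against 157.2 in control cells, 3.49-fold higher with a log2 ratio of 1.80. These ratios stood at ranks 203 and 95 from the top of all 23611 measured. Among 4297 probe sets with a mean signal within 0.5 log2 units of 221985_at, 1.26% were as far or farther above 0. For 221986_s_at this held for 0.317% of 4422. Both probe sets were singled out for their size among the members, so these ranks and shares describe them and are no support. The control signal of 221986_s_at was also close to the floor of 138.4. The other probe sets of the gene showed much less. Probe set 226158_at read 197.1 on the silenced array, against 159.6 on the control array (log2 ratio 0.30), and 206551_x_at read 406.9, against 386.7 in control cells (0.07). The last of these turned to -0.16 with the arrays scaled on their poly-A controls, so its direction is not settled. A further probe set, 242088_at, was under both floors, at 90.7 in silenced and 28.8 in control cells. The probe sets of KLHL24 thus disagreed by up to 1.73 log2 units, a width reached by 8 of the 490 genes with 4 probe sets above both floors, whose median width was 0.51. The median of the gene's probe sets did not reach 2-fold, and which of them follows the main transcript was not tested. KRT14, the keratin 14 gene, was under the floor on both arrays, at 69 in silenced and 7.6 in control cells.

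KLHL36 is among the less studied adaptors. Probe set 238523_at read 211.6 on the silenced array, against 492.3 on the control array, 2.33-fold lower with a log2 ratio of -1.22. Probe set 227319_at, the brightest and the 1 that stands for the gene, read 602 in silenced cells, against 964.9 in control cells (log2 ratio -0.68), and 219453_at read 199.7, against 251 (-0.33). All 3 were lower, by unequal amounts. This width of 0.89 was reached by 12.3% of the 1257 genes with 3 probe sets above both floors. Among 4404 probe sets of like signal, 1.77% were as far or farther below 0 as 238523_at, which was likewise singled out for its size.

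The start regions of both genes, and that of KLHL4, which was measured on the silenced array only, are shown because the first 2 are the members past 2-fold and KLHL4 passes it under a lower floor. The sequences are the 250 bases before the annotated start, from RefSeq on build GRCh38.p14, on the plus strand in all 3 cases, written 5' to 3'. Capitals mark matches on either strand to any of 3 motifs: the GC box (GGGCGG), the CCAAT box (CCAAT) and the cell cycle genes homology region (TTTGAA).
KLHL24, chr3:183635373-183635622: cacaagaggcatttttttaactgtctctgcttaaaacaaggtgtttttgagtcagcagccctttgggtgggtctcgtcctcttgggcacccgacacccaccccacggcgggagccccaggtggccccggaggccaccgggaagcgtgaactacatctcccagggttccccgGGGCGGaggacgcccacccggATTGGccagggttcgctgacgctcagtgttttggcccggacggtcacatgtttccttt
KLHL36, chr16:84648261-84648510: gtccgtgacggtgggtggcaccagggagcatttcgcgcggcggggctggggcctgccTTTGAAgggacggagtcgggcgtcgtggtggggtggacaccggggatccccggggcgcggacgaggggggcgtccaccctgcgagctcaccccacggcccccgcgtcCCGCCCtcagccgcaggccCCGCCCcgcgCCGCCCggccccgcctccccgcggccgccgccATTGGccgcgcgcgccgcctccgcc
KLHL4, chrX:87517552-87517801: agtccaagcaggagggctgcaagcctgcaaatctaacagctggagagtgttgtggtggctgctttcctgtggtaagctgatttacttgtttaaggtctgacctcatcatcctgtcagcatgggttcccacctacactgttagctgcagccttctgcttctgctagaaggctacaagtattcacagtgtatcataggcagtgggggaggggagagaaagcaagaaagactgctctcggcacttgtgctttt
KLHL24 held 1 GC box, 79 to 74 bases before the start, and 1 CCAAT box on the minus strand, 58 to 54 bases before it. KLHL36 held 3 GC boxes and a CCAAT box on the minus strand, the last at 25 to 21 bases before the start, and 1 homology region at 193 to 188 bases. KLHL4 held none of the 3, and no match overlapped another in these windows. Of all 35116 promoters in the RefSeq table, 42.6% held a GC box, 32.0% a CCAAT box and 13.3% the homology region, so a match in a single promoter is common. These matches describe letters and not bound sites.

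Several members had lower signals short of 2-fold. KLHL8, whose Caenorhabditis elegans relative acts on the synaptic protein rapsyn, read 450.1 on the silenced array, against 840.7 on the control array, on 242648_at (log2 ratio -0.90) and 471.9, against 687.7, on 226874_at (-0.54). KLHL2, also called Mayven, which binds actin and targets WNK kinases for degradation, read 427.2 in silenced cells, against 751.1 in control cells (log2 ratio -0.81), on its single probe set. Both lay just inside the 2-fold limit, and the scaling moved them across or away from it. With the arrays scaled on their poly-A controls, 242648_at of KLHL8 went to -1.13 and KLHL2 to -1.05. Scaling on the hybridization controls put them at -0.72 and -0.63. Differences of this size were not rare. Of 4174 probe sets with a signal like that of KLHL2, 5.61% were as far or farther below 0. KLHL5 had 3 probe sets above both floors, all lower. They gave log2 ratios of -0.73 (189.7 silenced, 314.5 control), -0.52 (320.9 silenced, 461.5 control) and -0.20 (3185.9 silenced, 3669.4 control), with the smallest difference at the brightest probe set.

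KLHL7, an adaptor mutated in a form of retinitis pigmentosa, had the highest ratios above both floors after KLHL24. It read 1509.3 on the silenced array, against 1036.5 on the control array, on 220239_at (log2 ratio 0.54) and 901.5, against 638.5, on 220238_s_at (0.50). On 223250_at it read 1295.7 in silenced and 1172.9 in control cells (0.14). All 3 were higher with the deposited scaling, by less than 1.5-fold, and the last changed sign with scaling on the poly-A controls.

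**Figure D3:**
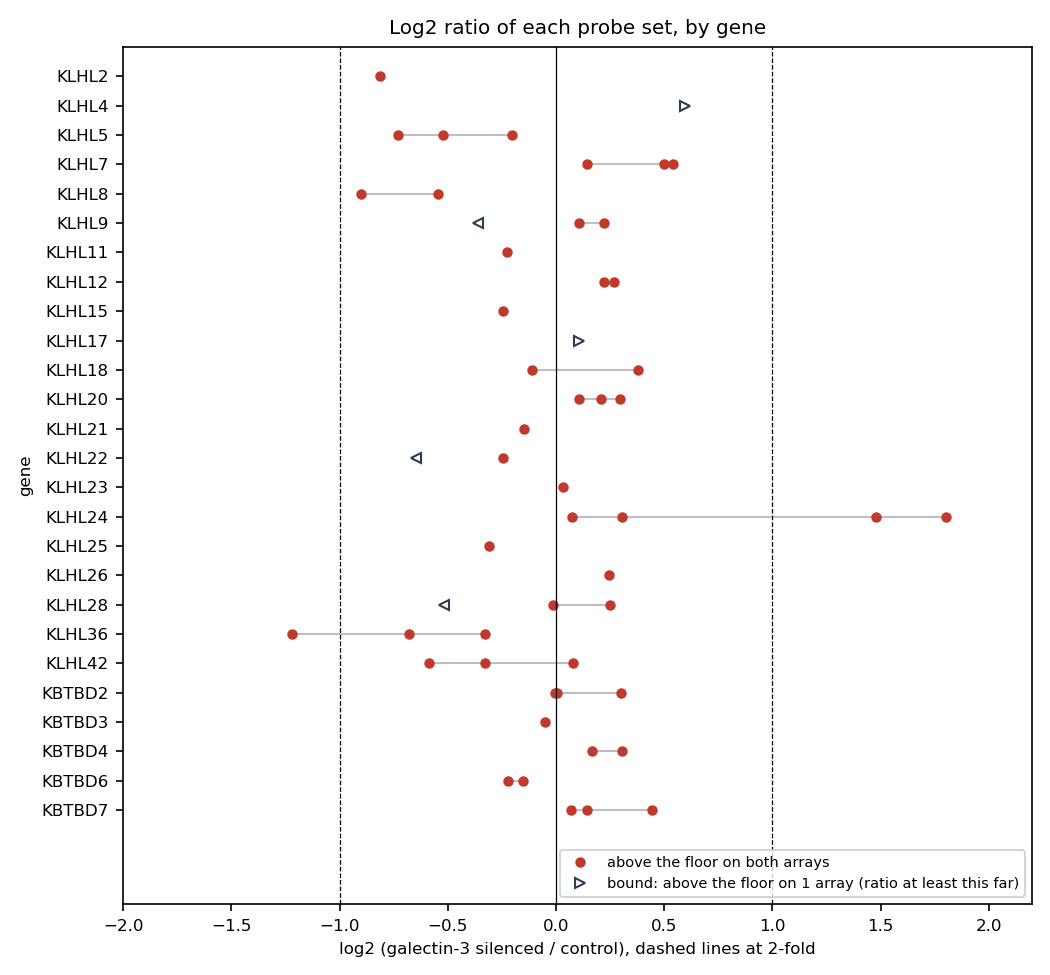
Log2 ratio of silenced over control for each probe set of the 26 measured KLHL and KBTBD genes, with filled circles for probe sets above both floors, open triangles for bounds and dashed lines at 2-fold. Only KLHL24 (1.48 and 1.80) and KLHL36 (-1.22) cross the lines, and both genes have other probe sets nearer 0.

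Adaptors that act in mitosis showed small or mixed differences. KLHL9, KLHL13 and KLHL21 direct CUL3 to Aurora B on chromosomes and the spindle. KLHL9 read 2955.6 in silenced cells, against 2741.3 in control cells, on 213233_s_at (log2 ratio 0.11) and 1156.5, against 990.1, on 213117_at (0.22). Its probe set 233197_at was above the floor in control cells only (66.4 silenced, 140.7 control) and gave a bound of at least 1.28-fold lower. Its control signal was close to the floor, and with 1 common floor for both arrays the bound shrank to a log2 value of -0.02. KLHL21 read 254.8 on the silenced array, against 282.6 on the control array (-0.15), and KLHL13 was under both floors. KLHL18, which acts on Aurora A, gave 0.38 on 1557165_s_at (660.6 silenced, 507.8 control) and -0.11 on 212882_at (669.2 silenced, 722.3 control), which disagree in sign. KLHL22, an adaptor for the kinase PLK1, read 338.7 in silenced cells, against 400.9 in control cells (-0.24), on 49329_at, and 221838_at gave a bound of at least 1.57-fold lower (log2 value -0.65, or -0.31 with the common floor). KLHL42, which acts on the microtubule-severing katanin, had log2 ratios of -0.33 (1163.2 silenced, 1459.9 control), -0.59 (327.7 silenced, 491.6 control) and 0.08 (640.3 silenced, 605.7 control). None of these members passed 2-fold.

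KLHL12 and KLHL20 act in the secretory pathway and in autophagy, and their ratios lay between 0.11 and 0.29. KLHL12, which ubiquitylates the coat protein SEC31 for large cargo and also targets Dishevelled, read 4063.3 on the silenced array, against 3378.3 on the control array, on 225068_at (log2 ratio 0.27) and 959.9, against 821.8, on 219931_s_at (0.22). KLHL20, which acts on the autophagy kinase ULK1, the death-associated kinase DAPK1 and the PML protein, gave log2 ratios of 0.11 (930.6 silenced, 864.4 control), 0.29 (709.1 silenced, 578 control) and 0.21 (698.5 silenced, 604.4 control). These ratios are smaller than the spread between probe sets of a gene on this array, and their direction is not settled. It held under all 6 scalings for 225068_at of KLHL12 and 210635_s_at of KLHL20 and for no other probe set of the pair.

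Among the KBTBD genes 5 of 8 were above both floors, and their 11 probe sets had log2 ratios from -0.22 to 0.44. KBTBD6 and KBTBD7 form a joint adaptor that is brought to membranes by GABARAP proteins and degrades the exchange factor TIAM1. KBTBD7 read 645.6 in silenced cells, against 584.6 in control cells, on its brightest probe set (0.14), with 0.44 (392.2 silenced, 288.6 control) and 0.07 (264.3 silenced, 252 control) on the others. KBTBD6 gave -0.22 (609.3 silenced, 711.3 control) and -0.15 (146.8 silenced, 163 control), so the partners had opposite signs with the deposited scaling, by less than 1.5-fold in every case. KBTBD2, which limits the phosphoinositide 3-kinase subunit p85 alpha, read 1260.9 on the silenced array, against 1023 on the control array, on 212447_at (0.30), while its other probe sets were at 0.0068 (678.8 silenced, 675.6 control) and -0.0029 (839.8 silenced, 841.5 control). KBTBD4, an adaptor for the CoREST repressor that is mutated in medulloblastoma, gave 0.17 (482.3 silenced, 429.7 control) and 0.30 (318.3 silenced, 257.8 control). KBTBD3 read 161.7 in silenced and 167.3 in control cells (-0.05). KBTBD8, which ubiquitylates TCOF1 and NOLC1 in neural crest formation, was under both floors, at 89 in silenced and 127.3 in control cells.

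Of the remaining measured members 5 had log2 ratios from -0.31 to 0.24. KLHL11, known as an autoantigen in paraneoplastic encephalitis, read 2222 in silenced cells, against 2598.3 in control cells (log2 ratio -0.23). KLHL15, which targets the repair factor CtIP, read 286.3, against 339.5 in control cells (-0.25), and KLHL25, an adaptor for ATP citrate lyase, 195, against 241.3 (-0.31). KLHL26 read 373.2 on the silenced array, against 315.2 on the control array (0.24), and KLHL23 887.6, against 866.7 (0.03). These 5 genes had 1 probe set each above both floors, so nothing on the array repeats their values. KLHL28 gave 0.25 on 235727_at (562.3 silenced, 472.2 control) and -0.01 on 228328_at (496.8 silenced, 501.2 control), while 220374_at gave a bound of at least 1.43-fold lower (log2 value -0.52, or -0.18 with the common floor). KLHL17, actinfilin, which binds actin filaments in neurons, was above the floor on the silenced array only, at 149, against 112.4 in control cells, at least 1.08-fold higher, and this turned to a log2 value of -0.13 with scaling on the poly-A controls. Its other probe set, 1555650_at, was under both floors, at 31.3 in silenced and 129 in control cells.

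KLHL4 was the other gene above the floor on 1 array only. Probe set 1553027_a_at read 209 on the silenced array, against 10.1 on the control array, which is at least 1.51-fold higher against the control floor of 138.4. Its second probe set, 214591_at, was under both floors, at 53.2 in silenced and 3.1 in control cells. How far KLHL4 stands above the control depends on the floor. With olfactory receptor pseudogenes left out of it, an alternative chosen after the data were seen, the floors were 82.9 (silenced) and 87.8 (control) and the bound became at least 2.38-fold. The bound also depended on the scaling. Its log2 value of 0.59 became 0.36 with scaling on the poly-A controls and 0.78 with scaling on the hybridization controls. KLHL4 and KLHL17 were counted as measured through the silenced array alone, so their bounds are no support for a direction of the family.

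The other 16 members, with 32 probe sets, were under the floor on both arrays. Their signals ran from 1.9 to 98.5 on the silenced array and from 0.9 to 127.3 on the control array, with medians of 19.9 and 18.8. They included adaptors known mainly from other tissues, namely KLHL31, KLHL40 and KLHL41 of striated muscle, of which KLHL40 stabilises nebulin, KLHL1 of brain, KLHL10 of testis and KLHL6 of B cells. The skeletal muscle markers DES, MYH1, MYH2, ACTA1 and CKM were also all under the floor. KLHL3, which targets WNK kinases in the kidney and is mutated in an inherited form of high blood pressure, was under the floor too, at 69.8 in silenced and 18.6 in control cells on its brighter probe set. The remaining 9 were KLHL13, KLHL14, KLHL29, KLHL32, KLHL34, KLHL35, KBTBD8, KBTBD11 and KBTBD12. For these genes a change below the floor was not detectable. Over the whole array, 9261 of 19775 genes were under both floors on their brightest suitable probe set, so this is common and no trait of the members.

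The base composition of the start regions, which the choice of members did not use, was set beside the signals. RefSeq promoters were matched by symbol for 35 of the 42 genes, 45 promoters in all. The 25 promoters of 21 genes above both floors had a median GC content of 65.2% over 250 bases, the 18 promoters of 12 genes under both floors 51.6%, and all RefSeq promoters 58.0%. A GC box lay in 16 of the 25 (64%), in 4 of the 18 (22.2%) and in 42.6% of all promoters. The CCAAT box was in 28.0% of the 25, 22.2% of the 18 and 32.0% of all, and the homology region in 12.0%, 11.1% and 13.3%, with no such contrast. The promoters of all genes were not split by signal in this way, so the contrast cannot be read as a trait of the members. Promoters of 1 gene overlap or lie close to each other and are not independent, so these are descriptions with no test.

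Scaling the arrays on their hybridization or poly-A controls moved every ratio by about as much as most members differed. Setting the hybridization controls equal put the median of all measured genes at 0.17, and setting the poly-A controls equal put it at -0.25, against -0.02 as deposited. With the remaining scalings this median moved less and lay between -0.01 and 0.03. Over the deposited and 5 other scalings, 13 of the 48 probe sets above both floors stayed above 0, 16 stayed under 0 and 19 changed sign. Taking all of a gene's probe sets above both floors together, 8 genes stayed under 0 under all 6. They were KLHL2, KLHL5, KLHL8, KLHL11, KLHL15, KLHL22, KLHL25 and KLHL36, and 1 gene, KLHL26, stayed above 0. The poly-A scaling lowered ratios by more than the hybridization control scaling raised them, so staying above 0 was harder than staying under it. The same counts over all genes and probe sets were not made, so these counts show no direction of the family. For KLHL24 the log2 ratio ran from 1.25 to 1.66 on 221985_at and from 1.57 to 1.99 on 221986_s_at, and for 238523_at of KLHL36 from -1.45 to -1.04, so all 3 stayed past 2-fold. Relative to the median of all measured genes, the median of the members lay between -0.0030 and 0.04 under these 6.

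CUL3, the cullin that these adaptors serve, read 7277.1 on the silenced array, against 7720.1 on the control array (log2 ratio -0.09), with -0.32 on a dimmer probe set. A list of 29 genes of the ligase core, holding CUL3, its RING partner RBX1, the NEDD8 pathway that activates cullins, the exchange factor CAND1 and the COP9 signalosome that removes NEDD8, had 24 measured members. Of these 0 passed 2-fold upward and 0 downward, 11 had a ratio above 0 and 13 under 0, and the median log2 ratio was -0.02. The farthest from 0 were DCUN1D3, a NEDD8 ligase subunit, at 0.51 with 0.09 on its other probe set, and CAND1, at -0.41 (2958.1 silenced, 3925.2 control), whose 3 other probe sets were lower still, from -0.74 to -0.48. Of the 4 measured kelch adaptors filed under other symbols, KEAP1, which holds the antioxidant factor NRF2, was at -0.07 and ENC1, an actin-associated adaptor, at 0.14. IVNS1ABP, which binds an influenza protein, was at -0.55 (2961.8 silenced, 4344.8 control) and IPP at 0.53 (438.5 silenced, 303.4 control), neither past 2-fold. IVNS1ABP was lower on all its probe sets (-0.52 and -0.46 on the others) and IPP higher (0.15 and 0.60), with the deposited scaling.

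Among 22 measured BTB adaptors of CUL3 without kelch repeats, 1 passed 2-fold upward and 0 downward, beside 3.31% and 3.07% of all measured genes, with a median log2 ratio of -0.0038. The gene past 2-fold was RHOBTB1, which read 579.3 on the silenced array, against 219.9 on the control array, 2.63-fold higher on its single probe set above the floor.

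A list of 41 genes reported as substrates or partners of the members held 32 measured ones. Of these 1 passed 2-fold upward, 3 passed it downward and 28 did neither, beside 3.31% upward and 3.07% downward over all measured genes, and the median log2 ratio was -0.04. The lower genes were PLK1, a partner of KLHL22, at 709.9 on the silenced array, against 2895 on the control array (-2.03), AURKA, a partner of KLHL18, at 3095.7, against 7273 (-1.23), and TCOF1, a partner of KBTBD8, at 327.9, against 706.5 (-1.11). The higher gene was GABARAPL1, of the family that recruits KBTBD6 and KBTBD7, at 319.5 in silenced cells, against 146.4 in control cells (1.13). AURKB, the partner of KLHL9 and KLHL21, named after its value was seen, was at -0.83 (1120.5 silenced, 1998.3 control). The adaptors of these mitotic kinases did not pass 2-fold, as given above for KLHL9, KLHL18, KLHL21 and KLHL22. Ubiquitylation acts on protein, which the arrays do not measure.

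**Figure D4:**
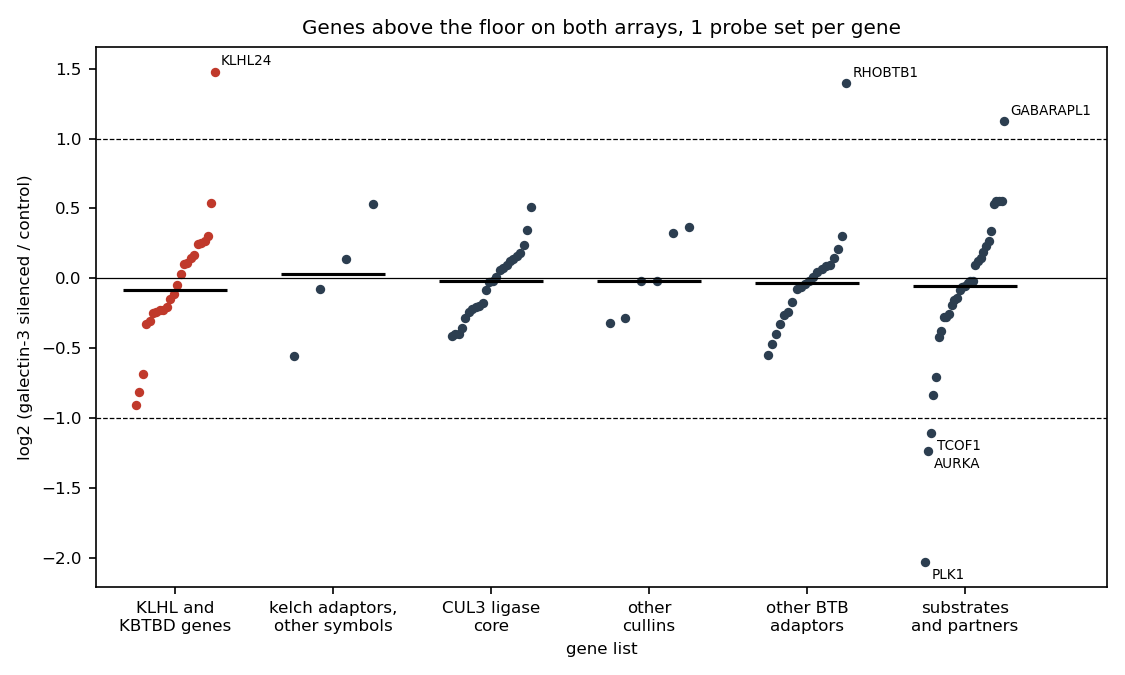
Log2 ratio of silenced over control for genes above both floors, 1 probe set per gene, in the KLHL and KBTBD family (red) and in lists of related genes (dark), with a bar at each list's median over these genes and dashed lines at 2-fold. The medians lie near 0, and the genes past 2-fold are KLHL24, RHOBTB1, GABARAPL1, TCOF1, AURKA and PLK1.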

How the data were processed

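RNA of 2 AGS cultures, 1 galectin-3 silenced and 1 control, was hybridised to Affymetrix arrays, and titles gave the groups. The authors deposited linear intensity values from MAS5, a program named in the submitters' processing notes; its version and scaling target are not stated there. Both arrays had a 2% trimmed mean of 500.07, and that scaling was left as it was. Low MAS5 signals are noisy, and a common mean hides changes in total RNA. The arrays' number limits the precision.

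Probe sets with 1 gene symbol in the platform annotation (41097 of 54675) were named. The floor was the 95th percentile of 135 olfactory receptor probe sets, pseudogenes included. Signals under it were raised to it before log2. The probe set brightest over both arrays (mean log2) stood for its gene, leaving out _x_at ones where another existed. All 42 members matched RefSeq by gene identifier, with the same symbol.

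Named genes were LGALS3, all members, and in each list up to 4 genes past 2-fold, or the 2 farthest from 0 where none passed. The text also names the ligase CUL3, KEAP1, ENC1, KRT14 and some markers by role. Members and lists were chosen with earlier results of these data known. The procedure was tried on simulated data with large known changes in bright probe sets only. That trial did not cover bounds, signals near the floor or ratios near 2-fold. Python 3.11.15, pandas 2.3.3 and statsmodels 0.14.6 were used. The alternatives changed the scaling, the floor, the probe sets used, the summary per gene and the rule of size.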

Additional observations from a re-analysis of the deposited data

How the results depend on the processing

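No paired analysis was possible because each group holds 1 array. A value with no replicates was compared with the pooled SD between probe sets of a gene, 0.32. The medians over members moved by less than this under every alternative run, from -0.20 to 0.22 over probe sets and from -0.24 to 0.17 over genes, the ends being the poly-A and the hybridization control scalings. The counts are small and moved mainly with the floor. Of member probe sets at least 2-fold higher (2 as reported) there were 16 without a floor, 4 with the offset of 50, and 1 with a floor 2 times higher or without _s_at and _x_at probe sets. There were 3 with the array median as the floor, 3 with the floor set without pseudogenes and 3 at 1.5-fold. At least 2-fold lower (1 as reported) were 11 without a floor, 3 with the offset, 2 with the array median as the floor and 3 with the poly-A controls set equal, and 7 were at least 1.5-fold lower. Of genes at least 2-fold higher (1 as reported) there were 8 without a floor, 3 with the offset, 2 with the array median as the floor, 2 with the floor set without pseudogenes, 2 at 1.5-fold and 0 when the probe sets of each gene were summarised by their median. At least 2-fold lower (0 as reported) were 3 without a floor, 1 with the offset, 2 with the poly-A controls set equal and 3 at 1.5-fold. Beyond the effect of a lower floor, which admits more probe sets, the cause was not tested. With the floor 2 times higher, 221986_s_at of KLHL24 became a bound of 0.99, while 221985_at stayed at 1.48. The 3 member probe sets past 2-fold kept their sign under every alternative run, while 206551_x_at of KLHL24 did not. The alternatives moved ratios by too little to turn the sign of those 3, so this is no added support.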

Other observations

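Kelch repeat proteins that lack a BTB domain include adaptors of another cullin. Of 10 on the array 5 were measured, 0 were at least 2-fold higher or lower, and the median log2 ratio was 0.09. The farthest from 0 were KLHDC9, at 0.24 (312 silenced, 264.8 control), and KLHDC3, at 0.22 (1322.3 silenced, 1131.4 control). KLHDC4, at 0.09 on its brightest probe set, had another at -0.65, so its probe sets disagreed.

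The other cullins, scaffolds of different ubiquitin ligases, were also listed. Of 7 measured, 0 passed 2-fold either way and the median log2 ratio was -0.02. The farthest from 0 were CUL4B, at 0.37 (1704.5 silenced, 1320.8 control), and CUL5, at 0.32 (3670.6 silenced, 2933.4 control), and CUL9, above the floor on the silenced array only, gave a bound with no direction.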
